A study of Mus musculus with 6 samples.

Results

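The apelin and angiotensin peptide systems were examined in endothelial cells (ECs) of MC38 tumors through 9 genes, taken by gene symbol from the 24346 genes listed in each sample. The 9 genes are the ligand genes Apln and Apela, the receptor genes Aplnr, Agtr1a, Agtr1b and Agtr2, and the peptidase genes Furin, Ace and Mme. They were chosen for what their products do with apelin or angiotensin peptides. Transcripts were measured by RNA-sequencing in 3 WT and 3 Apelin-KO samples. All mice were C57BL/6, aged 8 to 10 weeks at tumor inoculation, and all carried subcutaneous tumors of MC38, a mouse colon carcinoma line. ECs were sorted from tumors of day 19 as CD31+ CD45- cells, that is, cells with the EC surface protein CD31 and without the hematopoietic surface protein CD45. The Apelin-KO mice lack Apln in every cell, not in ECs alone, and the host deletion does not extend to the inoculated MC38 cells. The labels also give saline for all 6 samples, and the study's text does not describe it for this experiment. Nothing in the labels says how the samples of a genotype were separated, so p-values measure the spread between these samples.

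Apelin is a secreted peptide cut from a longer precursor, and it acts on a G-protein-coupled receptor called APJ, the product of Aplnr. APJ is known for its expression in growing vessels, where apelin signalling affects vessel caliber, and the second ligand of APJ is the peptide encoded by Apela. APJ is related in sequence to the receptors for angiotensin II, a peptide that raises blood pressure, and both peptide systems share enzymes. Furin cuts precursor proteins after basic residues and can release mature apelin. Angiotensin-converting enzyme, from Ace, makes angiotensin II on the surface of ECs. Neprilysin, from Mme, is a membrane peptidase that degrades both apelin and angiotensin peptides.

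In GRCm38, Apln (ENSMUSG00000037010.7) spans positions 48025146 to 48034853 of chromosome X, has 3 exons and is read from the minus strand. Its annotated coding sequence has 234 bases, and is shown because it carries the peptide whose gene was deleted. The capitals mark the last 13 codons before the stop codon, from codon 65 on, which encode apelin-13, a short active form. The coding sequence of Apln in GRCm38, 5′ to 3′, reads as follows.
Apln: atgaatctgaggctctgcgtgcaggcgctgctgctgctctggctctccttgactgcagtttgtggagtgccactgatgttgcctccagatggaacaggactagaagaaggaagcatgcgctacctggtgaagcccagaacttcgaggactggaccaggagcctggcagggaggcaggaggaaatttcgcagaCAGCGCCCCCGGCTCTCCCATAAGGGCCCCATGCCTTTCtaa

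Apln was the most abundant of the 9 transcripts in WT ECs and fell steeply in Apelin-KO ECs. Expression is given as FPKM (fragments per kilobase of transcript, relative to all mapped reads), a level per length that can be compared between genes. Apln measured 432, 435 and 504 FPKM in WT 1, 2 and 3. In Apelin-KO 1, 2 and 3 it measured 9.96, 17.5 and 24.3 FPKM. The groups lay far apart, and the WT samples differed little among themselves. The mean was 457 ± 40.7 FPKM in WT and 17.3 ± 7.20 FPKM in Apelin-KO (SD, n = 3 each). Its place among the 24346 genes ordered by FPKM was between 111 and 128 in WT samples, and between 3417 and 5834 in Apelin-KO samples. On the scale log2(FPKM + 1), the difference WT minus Apelin-KO was 4.73 (standard error 0.29, 95% interval 4.05 to 5.40), with an adjusted p of 0.00747 by limma with Benjamini-Hochberg adjustment over 10964 genes. Apln was the only one of these genes to pass an adjusted p of 0.05, which equals 0.00912% of them, so that 1 of the 5 members tested was called. This gene is the target of the knockout, so its fall checks the genotype labels. The call was lost without WT 2 (limma adjusted p = 0.0770), without Apelin-KO 2 (adjusted p = 0.108), and when each gene kept its own variance (adjusted p = 0.497), whereas the difference itself stayed between 4.40 and 5.01 whichever sample was left out.

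Some Apln signal remained in every Apelin-KO sample. It amounted to 2.18%, 3.82% and 5.33% of the WT mean in Apelin-KO 1, 2 and 3. Estimated from the low FPKM values, these levels stand on about 276, 529 and 679 reads, against 11583 to 13636 reads in the WT samples. None of the 3075 stretches of 75 bases in the Apln transcript, the length of a read, occurs in a transcript of another annotated gene. FPKM is given per gene, and the deleted exons are not named in the sources used here, so the remaining signal could not be placed along the transcript printed above. In bulk samples such as these, fewer cells of a type and less RNA per cell cannot be told apart.

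**Figure D1:**
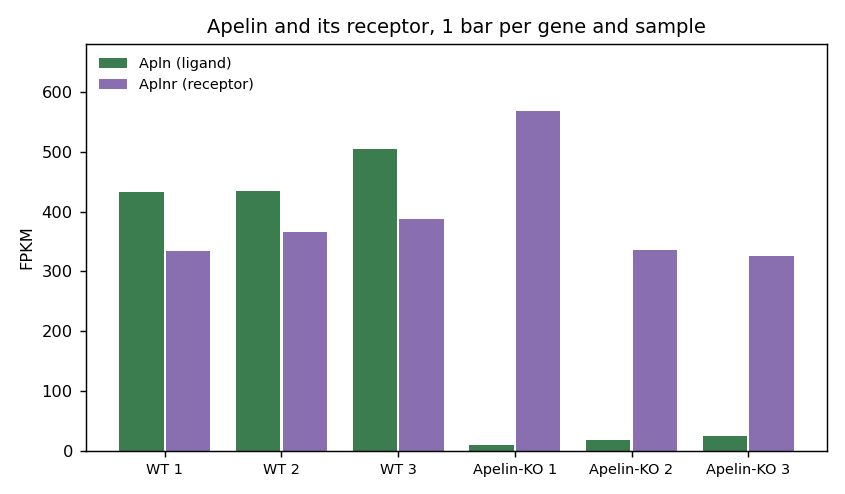
FPKM of Apln (ligand) and Aplnr (receptor), with 1 bar per gene and sample, for 3 WT and 3 Apelin-KO samples. Apln stands above Aplnr in each WT sample and between 9.96 and 24.3 FPKM in the Apelin-KO samples, and the highest Aplnr bar is that of Apelin-KO 1, at 568 FPKM.

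Apela, on chromosome 8 from 65028417 to 65037336 (minus strand, 4 exons), was listed at 0 in all 6 samples. One read would have given between 0.126 and 0.143 FPKM at the estimated depth. Of its stretches of 75 bases, 24.8% also occur in the predicted gene Gm45886. A value of 0 in these tables is not always an absence of transcript: Gapdh, a gene that every cell uses, was listed at 0 in 2 samples and at no more than 0.433 FPKM in the others, and 80.3% of its stretches of 75 bases occur in transcripts of other genes. Apela is therefore given only as listed at 0, as were 8005 genes in all samples.

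Among the 4 receptor genes, Aplnr alone was expressed at a high level. It lies on chromosome 2 from 85136225 to 85139923 (plus strand), and its transcript has 1 exon. Aplnr measured 334, 366 and 387 FPKM in WT 1, 2 and 3. In Apelin-KO 1, 2 and 3 it measured 568, 336 and 325 FPKM. The genotypes overlapped, since Apelin-KO 1 was above every WT sample and Apelin-KO 3 was below every WT sample. The means were 363 ± 26.4 FPKM in WT and 410 ± 137 FPKM in Apelin-KO (SD, n = 3 each), and the gene ranked between 96 and 219 of 24346 in every sample. The log2 difference WT minus Apelin-KO was -0.13 (95% interval -0.65 to 0.39), with an adjusted p of 0.880 by limma with Benjamini-Hochberg adjustment. Without Apelin-KO 1, the difference turned to 0.13, with an adjusted p of 0.696. A change within that interval could not be told from none.

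In WT ECs the ligand transcript exceeded the receptor transcript, and in Apelin-KO ECs this order was inverted. The log2 ratio of Apln to Aplnr, with 1 FPKM added to both, was 0.37, 0.25 and 0.38 in WT 1, 2 and 3, with a mean of 0.33 ± 0.07 (SD, n = 3). For Apelin-KO 1, 2 and 3 the ratio was -5.70, -4.19 and -3.68, with a mean of -4.52 ± 1.05 (SD, n = 3). No test was made on this ratio, since the knockout removes its numerator.

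The angiotensin receptor genes were at the lower end of the data. Agtr1a, which encodes a type 1 receptor for angiotensin II, lies on chromosome 13 from 30336441 to 30382867 (plus strand, 3 exons). In WT 1, 2 and 3 it reached 0.283, 0.478 and 0.261 FPKM. Apelin-KO 1, 2 and 3 had 0.460, 0.420 and 0.354 FPKM. These values correspond to between 4.79 and 8.63 estimated reads in a sample, under the mean of 1 FPKM required for the fit. The groups overlapped, with means of 0.341 ± 0.119 FPKM in WT and 0.411 ± 0.0535 FPKM in Apelin-KO (SD, n = 3 each), and a two-sided exact permutation test gave p = 0.4, where the smallest possible value is 0.1. With 3 samples against 3, no difference could pass a threshold of 0.05 in this test.

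Agtr1b, the closest relative of Agtr1a in the mouse, is on chromosome 3 from 20314473 to 20367177 (minus strand, 2 exons) and was listed at 0 in all samples, where 1 read would have given between 0.05003 and 0.05685 FPKM. Agtr2, the type 2 receptor gene, is on chromosome X from 21484544 to 21489164 (plus strand, 3 exons). It measured 0.073 FPKM in WT 1 and 0.039 FPKM in Apelin-KO 3, about 2.28 and 1.14 estimated reads, and was listed at 0 in the other 4 samples. The log2 ratio of Aplnr to Agtr1a, with 1 FPKM added to both, was 8.08 ± 0.16 in WT and 8.14 ± 0.41 in Apelin-KO (SD, n = 3 each). The difference between genotypes was smaller than the spread between Apelin-KO samples. Agtr1a is below the added 1 FPKM, and with 0.1 FPKM added the ratios were 9.71 in WT and 9.60 in Apelin-KO, so their order turned.

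Because Agtr1a and Agtr1b are near copies of each other, their coding sequences were compared to see whether a read of 75 bases could tell them apart. Both have 1080 coding bases, of which 981 (90.8%) are identical. Of 1006 windows of 75 bases, none was identical between both genes, 103 had no more than 2 differences, and the median was 6 differences (range 1 to 18). A window of few differences and one of the median number are shown, from the GRCm38 annotation, 5′ to 3′, with capitals at the bases that differ. The first pair covers coding bases 60 to 134 and has 1 difference, and the second pair covers coding bases 6 to 80 and has 6.
Agtr1a, bases 60 to 134: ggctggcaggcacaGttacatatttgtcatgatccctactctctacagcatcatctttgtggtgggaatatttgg
Agtr1b, bases 60 to 134: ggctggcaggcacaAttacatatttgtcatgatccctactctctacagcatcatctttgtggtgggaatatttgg
Agtr1a, bases 6 to 80: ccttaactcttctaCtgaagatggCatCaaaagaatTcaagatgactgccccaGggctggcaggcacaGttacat
Agtr1b, bases 6 to 80: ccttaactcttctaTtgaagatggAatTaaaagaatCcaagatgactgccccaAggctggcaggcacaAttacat
A read from the first window can be placed only by a single base, and how the authors' mapping treated such reads is not given in the sources used here. Neither gene shares a whole stretch of 75 bases with any other annotated transcript.

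**Figure D2:**
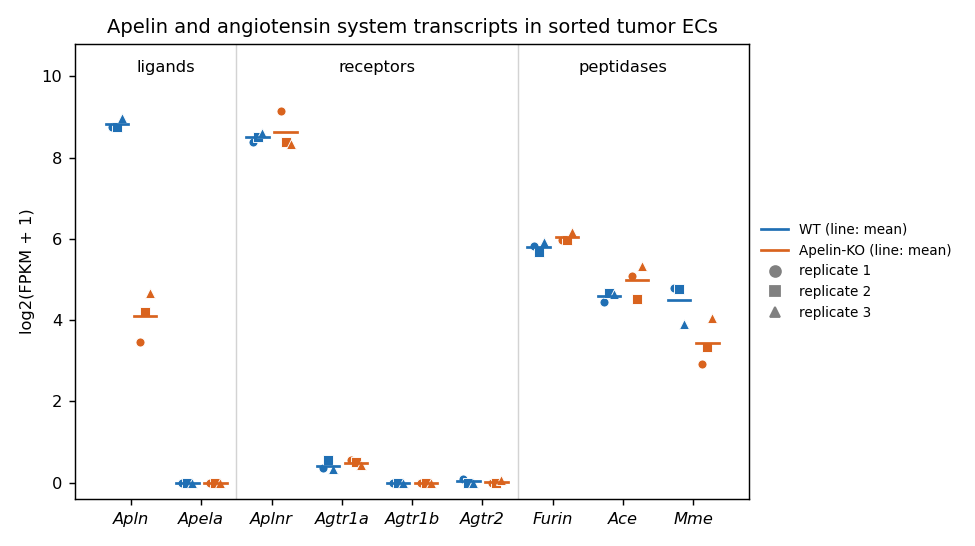
Level of each of the 9 genes on the scale log2(FPKM + 1), with 1 point per sample (3 WT, 3 Apelin-KO, replicate by symbol) and a line at the mean of each genotype. Apln and Aplnr stand at the top in WT, the 3 peptidase genes lie between, and Apela, Agtr1a, Agtr1b and Agtr2 lie at or near 0.

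The 3 peptidase genes were expressed at intermediate levels, and none of them passed the adjusted threshold. Furin is on chromosome 7 from 80388585 to 80405436 (minus strand, 16 exons). It measured 55.5, 50.3 and 59.7 FPKM in WT 1, 2 and 3. In Apelin-KO 1, 2 and 3 it measured 61.8, 61.4 and 71.6 FPKM. Each Apelin-KO sample was above each WT sample, with means of 55.2 ± 4.72 FPKM in WT and 65.0 ± 5.79 FPKM in Apelin-KO (SD, n = 3 each). The log2 difference WT minus Apelin-KO was -0.23 (standard error 0.12, 95% interval -0.50 to 0.04), with an adjusted p of 0.574 by limma with Benjamini-Hochberg adjustment. Furin and Apln were the 2 of 5 members tested whose genotypes did not overlap, beside 14.4% of all genes tested.

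The sample order of Furin was that of the summed EC markers. Summed over 15 EC markers, among them Pecam1 (which encodes CD31), Cdh5 and Kdr, the level was 4694, 4345 and 5184 FPKM in WT 1, 2 and 3. The sum in Apelin-KO 1, 2 and 3 was 5559, 5374 and 5663 FPKM. The summed marker level was thus higher in each Apelin-KO sample than in each WT sample, and the 6 samples fell in the same order by this sum as by Furin. Not every marker kept this order by itself, and Pecam1, Cdh5 and Kdr did not. None of these markers was listed at 0. All 15 were lower in WT on average, with a median log2 difference of -0.24, 5 of them at an unadjusted p under 0.05 (9.42% over all genes tested) and none at an adjusted p under 0.05 by limma. Without WT 2 the median was -0.15, and 1 of the 15 was higher in WT. The part of the marker level in the Furin values was not tested.

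Ace is on chromosome 11 from 105967945 to 105989964 (plus strand, 25 exons). It measured 20.9, 24.7 and 24.1 FPKM in WT 1, 2 and 3. In Apelin-KO 1, 2 and 3 it measured 33.1, 22.0 and 39.03 FPKM. Apelin-KO 1 and 3 were above every WT sample, but Apelin-KO 2 lay within the WT range, so the groups overlapped. The means were 23.2 ± 2.04 FPKM in WT and 31.4 ± 8.65 FPKM in Apelin-KO (SD, n = 3 each). The log2 difference was -0.39 (95% interval -0.87 to 0.10), with an adjusted p of 0.599 by limma with Benjamini-Hochberg adjustment. It was -0.61 without Apelin-KO 2 and -0.21 without Apelin-KO 3. Of the stretches of 75 bases in Ace, 3.12% also occur in the neighbouring annotation Gm11651.

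Mme is on chromosome 3 from 63241537 to 63386030 (plus strand, 23 exons), and showed the largest difference of the 4 tested members other than Apln. It measured 26.9, 26.1 and 14.1 FPKM in WT 1, 2 and 3. Apelin-KO 1, 2 and 3 measured 6.62, 9.18 and 15.7 FPKM. WT 1 and WT 2 were above all Apelin-KO samples, but WT 3 was below Apelin-KO 3, so the groups overlapped. The means were 22.3 ± 7.19 FPKM in WT and 10.5 ± 4.70 FPKM in Apelin-KO (SD, n = 3 each). The log2 difference was 1.04 (standard error 0.34, 95% interval 0.23 to 1.86), with an unadjusted p of 0.0187 and an adjusted p of 0.501 by limma with Benjamini-Hochberg adjustment. Mme and Apln were the 2 of 5 members tested with an unadjusted p under 0.05, beside 9.42% of all genes tested.

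The summed fibroblast markers followed the sample order of Mme. Over 15 fibroblast markers, such as Col1a1, Col3a1 and Dcn, the summed level was 407, 393 and 233 FPKM in WT 1, 2 and 3. In Apelin-KO 1, 2 and 3 it was 155, 208 and 245 FPKM, which puts the 6 samples in the same order as Mme. Col3a1 kept this order by itself, and Col1a1 and Dcn did not. All 10 fibroblast markers that could be tested were higher in WT on average, 5 of them at an unadjusted p under 0.05 (9.42% over all genes tested), with a median log2 difference of 0.54, and no fibroblast marker was listed at 0 in all samples. Without WT 1, the split was 7 above and 2 below 0. Without a filter, 14 of 15 markers were above 0 and 1 was below, with a median of 0.32. Summed over 20 hematopoietic markers, the level was 572, 969 and 286 FPKM in WT 1, 2 and 3 against 134, 345 and 303 FPKM in Apelin-KO 1, 2 and 3, an order other than that of Mme. Of the 15 hematopoietic markers tested, 14 were higher in WT on average and 8 had an unadjusted p under 0.05 (9.42% over all genes tested), with a median log2 difference of 1.24, which was 0.81 without Apelin-KO 1. Ptprc, which encodes CD45, measured 3.13, 4.84 and 1.27 FPKM in WT 1, 2 and 3 against 0.043, 1.70 and 0.740 FPKM in Apelin-KO 1, 2 and 3. No marker of either list passed an adjusted p of 0.05 by limma, and the part of these cells in the Mme values was not tested.

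**Figure D3:**
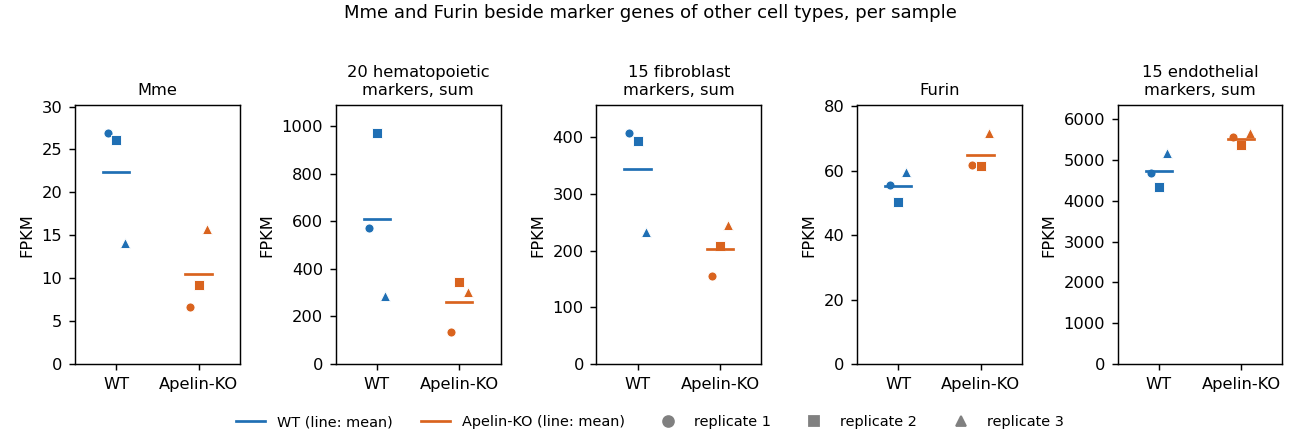
FPKM of Mme and of Furin beside the summed FPKM of hematopoietic, fibroblast and EC markers, with 1 point per sample (3 WT, 3 Apelin-KO, replicate by symbol) and a line at each mean. Mme lies in the same sample order as the fibroblast sum, and Furin in the same sample order as the EC sum, which is between 4345 and 5184 FPKM in WT and between 5374 and 5663 FPKM in Apelin-KO.

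The sort was checked against further marker lists. Among 15 pericyte markers the summed FPKM was between 588 and 753 in WT and between 661 and 770 in Apelin-KO, and the largest share came from Mcam, which ECs express as well. Of 10 pericyte markers tested, 3 were above 0 and 7 below 0 (WT minus Apelin-KO), with a median log2 difference of -0.25, which was -0.11 without WT 2 and -0.16 without WT 3. At an unadjusted p under 0.05 there were 2 (9.42% over all genes tested), both lower in WT, namely Rgs5 (log2 difference -0.98, adjusted p = 0.214 by limma) and Higd1b (-1.39, adjusted p = 0.501). Of 15 epithelial markers, used for the MC38 cells, 1 was above the filter. This was Krt20, at 6.41 to 20.6 FPKM, and no other marker of the list was above 1.48 FPKM in any sample.

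Ordered by mean level per length, the transcripts ran in WT from Apln (1.26 times Aplnr) through Aplnr (6.57 times Furin), Furin (2.37 times Ace), Ace and Mme to Agtr1a and Agtr2. Each of these steps was larger than the spread between WT samples, except that Ace and Mme overlapped, with means that differed 1.04-fold. In Apelin-KO the order began with Aplnr (6.31 times Furin) and Furin (2.07 times Ace). Ace, Apln and Mme followed, and each overlapped the next. The log2 ratio of Ace to Mme was 0.10 ± 0.57 in WT and 1.53 ± 0.55 in Apelin-KO (SD, n = 3 each). WT 1, 2 and 3 gave -0.35, -0.08 and 0.74, against 2.16, 1.18 and 1.26 for Apelin-KO 1, 2 and 3. The highest WT sample thus stayed below the lowest Apelin-KO sample, where 14.4% of all single genes tested did not overlap. Ace and Mme each overlapped between genotypes. Mme had the sample order of the summed fibroblast markers, and the part of these cells in the ratio was not tested. The log2 ratio of Furin to Ace, 1.21 ± 0.19 in WT and 1.06 ± 0.33 in Apelin-KO, overlapped between genotypes.

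**Figure D4:**
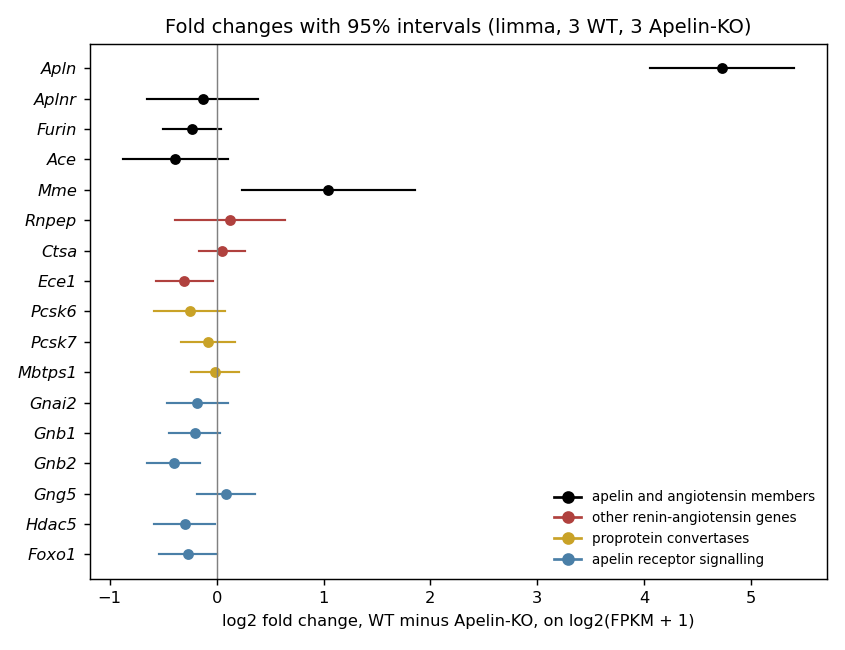
Log2 fold changes, WT minus Apelin-KO on log2(FPKM + 1), with 95% intervals from limma (3 WT, 3 Apelin-KO), for the 5 members tested and for 12 genes named from the pathway lists. Apln stands alone at 4.73, Mme is at 1.04, and the other members lie between -0.39 and -0.13.

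Other genes of the angiotensin system gave no call. Of 26 genes in a list of this system, 13 were tested, and 7 were above 0 and 6 below 0 (WT minus Apelin-KO). The median log2 difference was 0.05, beside -0.01 over all genes tested. Without WT 1, the split was 6 above and 7 below 0, and the median was -0.03, and it lay between 0.02 and 0.06 when any other sample was left out. None passed an adjusted p of 0.05 by limma, and 1 of 13 had an unadjusted p under 0.05 (9.42% over all genes tested). That gene was Ece1, the endothelin-converting enzyme, at 197 ± 18.99 FPKM in WT and 243 ± 13.3 FPKM in Apelin-KO (SD, n = 3 each), with an adjusted p of 0.513. The genotypes did not overlap for 2 of 13 genes (14.4% over all genes tested), Ece1 and Prcp, a carboxypeptidase that measured 47.0 ± 0.462 FPKM in WT and 56.6 ± 7.84 FPKM in Apelin-KO. Ece1 was also the most abundant gene of the list, ahead of Rnpep, an aminopeptidase (69.9 ± 9.21 FPKM in WT, 65.2 ± 17.4 FPKM in Apelin-KO), and Ctsa, a carboxypeptidase of lysosomes (65.1 ± 1.504 and 62.8 ± 2.76 FPKM). The sign of the Rnpep difference turned without Apelin-KO 3, from 0.13 to -0.11. At the head of the angiotensin pathway, the precursor gene Agt measured between 0.059 and 0.199 FPKM, and the renin genes Ren1 and Ren2 were listed at 0 in all samples. Ace3, Mrgprd, Mcpt4 and Klk1 were also listed at 0 in all samples.

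Among 8 other proprotein convertases and related proteases, 3 reached the filter. Pcsk6 measured 31.2 ± 5.33 FPKM in WT and 37.0 ± 0.263 FPKM in Apelin-KO, without overlap (log2 difference -0.25, adjusted p = 0.609 by limma), and the difference was -0.11 without WT 2. Pcsk7 measured 28.1 ± 2.10 and 29.8 ± 2.20 FPKM. Mbtps1 measured 36.5 ± 2.39 and 36.9 ± 0.0963 FPKM, and the sign of its small difference depended on the scaling between samples. Furin, at 55.2 FPKM in WT, was above each of them. Pcsk1 and Pcsk2, the convertases of neuroendocrine cells, were listed at 0 in all samples.

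All 30 genes of a list of APJ signalling (G proteins, arrestins, receptor kinases and targets) were tested. The difference was below 0 for 24 and above 0 for 6, with a median of -0.13. Over all 10964 genes tested, 5755 were below 0 and 5209 above 0, with a median of -0.01. With each sample scaled to the same FPKM sum, the split of the list was 21 and 9. None passed an adjusted p of 0.05 by limma. At an unadjusted p under 0.05 there were 4 of 30 genes, where the share over all genes tested was 9.42%. The genotypes did not overlap for 10 of 30, lower in WT for all of these, where the share over all genes tested was 14.4%. Gnb2, a G-protein beta subunit, measured 65.8 ± 5.58 FPKM in WT and 87.2 ± 3.68 FPKM in Apelin-KO (SD, n = 3 each), with a log2 difference of -0.40 (standard error 0.10) and an adjusted p of 0.501. Hdac5, a histone deacetylase, measured 6.89 ± 0.626 and 8.74 ± 1.05 FPKM (log2 difference -0.30, adjusted p = 0.521). Foxo1, a transcription factor of quiescent ECs, measured 29.1 ± 1.59 and 35.3 ± 3.81 FPKM (log2 difference -0.27, adjusted p = 0.525). The most abundant genes were Gnai2, an inhibitory G-protein alpha subunit (733 ± 82.2 FPKM in WT, 830 ± 63.8 FPKM in Apelin-KO), Gnb1 (279 ± 11.4 and 322 ± 23.5 FPKM) and Gng5 (215 ± 16.6 and 203 ± 18.7 FPKM). The EC markers given above lay on the same side, and their part in these values was not tested.

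**Figure D5:**
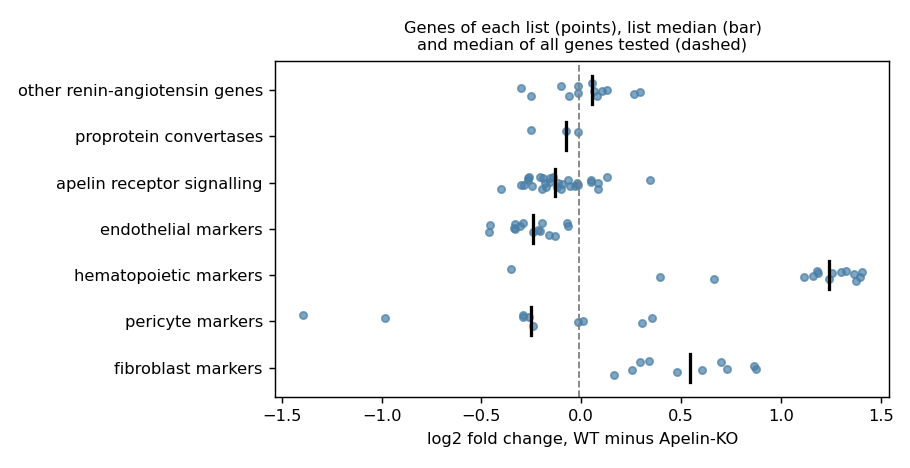
Log2 fold change, WT minus Apelin-KO, of each tested gene (points) in 7 lists, with the median of each list (bar) and of all genes tested (dashed line, -0.01). The list medians are 0.05 for other renin-angiotensin genes, -0.13 for APJ signalling, -0.24 for EC markers, 1.24 for hematopoietic markers and 0.54 for fibroblast markers.

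For each tested member, the genes with the most similar pattern over the 6 samples were taken by Pearson's r on log2(FPKM + 1) among 10964 genes, as a description of 6 samples that share 2 genotypes. The nearest to Apln were Fam208b (r = 0.989, Spearman's rho = 0.886), Gpr149 (r = 0.987, rho = 0.829) and Tnfrsf11a (r = 0.982, rho = 0.771). Gpr149, an orphan G-protein-coupled receptor, measured 3.44, 3.88 and 3.33 FPKM in WT and 1.08, 1.52 and 1.68 FPKM in Apelin-KO. Nearest to Aplnr were Lect2 (r = 0.999), Nr2f6 (r = 0.993) and Pmf1 (r = 0.989), whose high sample was likewise Apelin-KO 1. Lect2, a secreted protein, stood at 2.38 FPKM in Apelin-KO 1 and at 0.943 to 1.30 FPKM in the other samples. The nearest to Furin were Zswim8 (r = 0.997), Palmd (r = 0.994) and N4bp3 (r = 0.993). The nearest to Ace were Dram2 (r = 0.992), Cd36 (r = 0.9905) and Maf1 (r = 0.99). Cd36, a fatty acid transporter of capillary ECs, measured 70.5, 85.5 and 81.9 FPKM in WT 1, 2 and 3 against 116, 72.2 and 125 FPKM in Apelin-KO 1, 2 and 3, with Apelin-KO 2 again in the WT range. Nearest to Mme were Matn2 (r = 0.998), Scara3 (r = 0.991) and Ubtd2 (r = 0.989). Matn2, a matrix protein, measured 7.16, 6.37 and 2.88 FPKM in WT 1, 2 and 3 against 1.06, 1.78 and 3.46 FPKM in Apelin-KO 1, 2 and 3. None of the members was among the 3 nearest genes of another member.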

How the data were processed

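RNA-sequencing was available for 3 WT and 3 Apelin-KO samples of tumor ECs. The authors made stranded mRNA libraries (TruSeq), sequenced them in 75-base single-end reads on a HiSeq 2500, mapped them to mm10 and computed FPKM with Cufflinks. The deposited values are FPKM per gene symbol with 3 decimals. The submitters' processing notes name bcl2fastq 2.17.1.14, TopHat2 2.1.1, Bowtie2 2.2.4, SAMtools 1.0 and Cufflinks 2.2.1, and the methods of the study give other versions for part of these tools. The annotation and the strand setting are not given in the sources used here.

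Both genotypes were compared by limma 3.58.1 (R 4.3.3) on log2(FPKM + 1), which understates the change of low genes, without an intensity trend or block, over the 10964 genes whose mean reached 1 FPKM. P-values were two-sided and Benjamini-Hochberg adjusted over these genes. Members under the filter were compared by an exact permutation test. Depth is unknown from FPKM alone. Low values of 3742 single-transcript genes change in steps of 1 read, and these steps put depth at 9030000 to 10260000 reads per sample, assuming fragments of 200 bases. Only 66.0% to 69.1% of such values came within 0.1 of a whole number (20% by chance), so no count test was run. Positions, exons and sequences come from the GENCODE annotation and transcripts of GRCm38, the assembly of mm10.

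Named genes are the members, the 3 most abundant of each list, genes of a list with an adjusted p under 0.05 or up to 3 with an unadjusted p under 0.05 and the largest difference, and the 3 genes most like each member. Gapdh, Agt, Prcp, the list genes at 0 in all samples, Ptprc and Kdr were added after their values were seen, and of the marker lists only the genes that the text needs are named. Some list genes are not reported here. The members and lists were chosen with earlier results of these data known. Alternatives changed the pseudocount, filter, scaling, variance and block, or left out a sample.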

Additional observations from a re-analysis of the deposited data

How the results depend on the processing

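With limma, the number of genes past an adjusted p of 0.05 was 1 in the reported comparison, and 2 with a pseudocount of 0.01, without a filter, with a mean of at least 5 FPKM or with an intensity trend. It was 0 when each gene kept its own variance, with 783 genes at an unadjusted p under 0.05. Leaving out 1 sample gave 0 to 3 genes, with 3 without WT 1, 2 without WT 3 or Apelin-KO 1, and 0 without WT 2 (536 genes at an unadjusted p under 0.05) or Apelin-KO 2 (1164 genes). The cause was not tested.

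The difference of Apln stayed between 4.40 and 5.01 when 1 sample was left out, with adjusted p-values between 0.00256 and 0.108 by limma. Mme stayed between 0.79 and 1.35, Furin between -0.29 and -0.16, and Ace between -0.61 and -0.21. Aplnr ranged from -0.27 to 0.13 and turned positive without Apelin-KO 1. Rnpep ranged from -0.11 to 0.28 and turned negative without Apelin-KO 3. Mbtps1 ranged from -0.0607 to 0.0314 and was 0.0255 with samples scaled to the same sum, 0.000321 with the median of ratios and 0.00131 with quantile normalization. These scalings moved the median of all genes by less than 0.1.

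The log2 ratio of Aplnr to Agtr1a rose to 9.71 in WT and 9.60 in Apelin-KO with a pseudocount of 0.1, as Agtr1a is below 1 FPKM, so that the order of the genotypes turned. Replicate numbers are shared between genotypes. Deviations from the genotype means correlated across genes at r = -0.139, 0.207 and -0.0186 between samples numbered 1, 2 and 3. Between samples of unlike number, r lay between -0.195 and 0.212. With 3 samples per genotype, this comparison cannot decide whether samples of the same number were paired. With the replicate block 1 gene passed the adjusted threshold and Apln had an adjusted p of 0.0433 by limma. In the settings that kept all samples, 191 values kept their direction and side of the threshold (counts within 1.5 times), and the others are given above. Depth limits Agtr1a and Agtr2, at fewer than 10 estimated reads a sample, and genes listed at 0 may be expressed.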
